A study of Mus musculus with 6 samples.

Results

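Fibroblast growth factors (FGFs) are secreted proteins that signal through receptor tyrosine kinases, the FGF receptors, with heparan sulphate on the cell surface as a cofactor. A bound receptor phosphorylates the adaptor FRS2 and passes the signal to the MAPK, PI3K and phospholipase C gamma pathways, and feedback inhibitors of the Sprouty and DUSP families limit it. In the postnatal cortex these receptors are known for roles in neurons, astrocytes and the oligodendrocyte lineage, and several of the ligands are also known to act on blood vessels.

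The genes described are 6 ligands (Fgf1, Fgf2, Fgf5, Fgf9, Fgf10 and Fgf18) and 3 receptors (Fgfr1, Fgfr2 and Fgfr3), chosen by their symbols. All 9 were found among the 14824 genes listed by the authors. Bulk RNA-seq was performed on pieces of primary somatosensory (S1) cortex from wild-type male C57BL/6 mice (C57B6 in the sample labels) at postnatal day 21. There were 3 libraries from cortex with whisker stimulation (WS) and 3 from cortex without it (NS, called NW control in the sample labels). WS tissue was taken 90 minutes after the last stimulation. Whiskers of one side were brushed by hand daily, and the cortex of the unstimulated hemisphere served as the control. The study gives its n for these data in mice, so the libraries of a group were taken to come from different animals. The labels do not tie a library to an animal, and whether same-numbered libraries came from both hemispheres of one mouse is not given.

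Library counts were recovered for each gene from its deposited mean, SD and z-scores. The total over the listed genes was between 15660395 and 17276168 counts per library. The level of a gene is its CPM, the usual count per unit of library size, with library sizes normalized by TMM in edgeR. The WS and NS groups were tested with edgeR (quasi-likelihood), p-values were adjusted over all tested genes after Benjamini and Hochberg, and a call needed a log2 fold change beyond 1 in either direction as well as an adjusted p under 0.05. Over genes, the library pair that differed most was WS replicate 1 and WS replicate 3, with a chi-square of 20.3 per degree of freedom against 4.29 to 12.3 in the other pairs. All 8 markers of cortical excitatory neurons were present, with a summed level of 6871 to 8176 CPM. Markers of neighbouring tissue were present too and varied between libraries, with summed levels of 299.1 to 956.3 CPM for 7 choroid plexus genes and 306.4 to 615.3 CPM for 8 genes of striatal projection neurons.

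None of the 9 FGF genes was called between WS and NS. Fgf2 lay under edgeR's filter on low counts, and of the 8 genes tested 0 were called higher and 0 lower in the edgeR test, against 0.0291% higher and 0% lower of the 13747 genes tested in all. With an adjusted p under 0.05 and any fold change the count was 0 of 8 as well, against 0.0364% of all genes higher and 0% lower. The count was also 0 of 8 at an unadjusted p under 0.05, against 0.866% of all genes higher and 0.327% lower, and DESeq2 called 0 as well. In same-numbered libraries, WS was above NS in 3 of 3 pairs for Fgf1, Fgf2, Fgf18 and Fgfr2, in 2 of 3 for Fgfr1 and Fgfr3, in 1 of 3 for Fgf9 and Fgf10 and in 0 of 3 for Fgf5. Of the 8, 5 had a log2 fold change above 0 and 3 below, against 53% and 47% of all genes. The adjusted p was 0.9998 for each of the 8 (edgeR).

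Compared per kilobase of exon sequence, the order of the genes was close to the same in all libraries. Fgfr3 was first in 6 of 6 libraries, with 16.4 to 20.3 CPM per kilobase. Fgf1 was second in all 6 with 10.3 to 13.4 CPM per kilobase, which made it the highest of the ligands. Fgfr1 followed with 5.37 to 6.58 CPM per kilobase. Fgfr2, at 3.39 to 4.96 CPM per kilobase, and Fgf9, at 3.54 to 4.09, overlapped each other but not their other neighbours. Fgf18, with 1.38 to 2.14 CPM per kilobase, overlapped Fgf10, with 0.631 to 1.42, and Fgf10 overlapped Fgf5, with 0.995 to 1.19. Fgf2 was last in each library, at 0.0186 to 0.0745 CPM per kilobase. Dividing by the longest annotated transcript in place of the union of exons left the rank of 9 of 9 genes the same, but not the overlaps. Per kilobase of the longest transcript, Fgfr2 (7.91 to 11.6 CPM) lay apart from Fgf9 (4.58 to 5.29 CPM) and overlapped Fgfr1 (10.5 to 12.9 CPM).

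**Figure D1:**
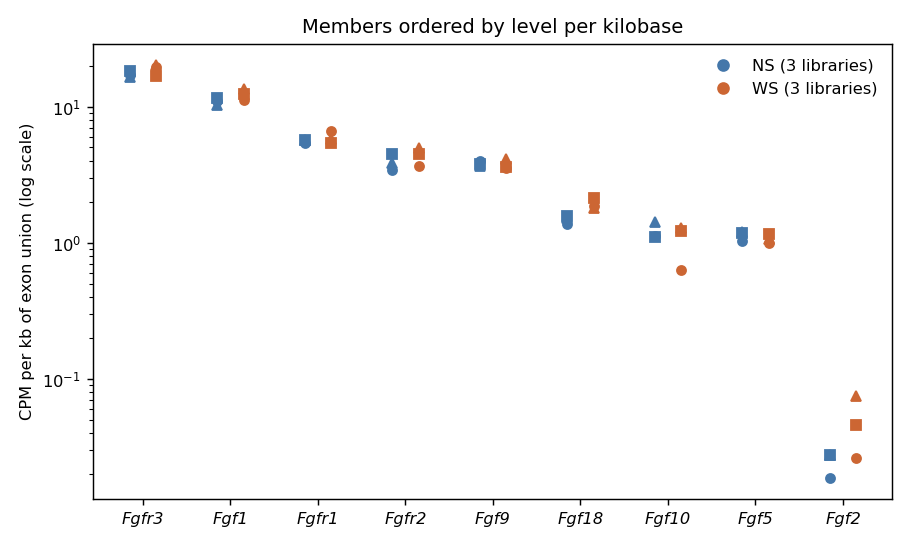
CPM per kilobase of exon union on a log axis for the 9 genes, ordered by their mean over the 6 libraries, with 1 point for each library (blue NS, orange WS; circle, square and triangle for replicates 1, 2 and 3). Fgfr3 lies at 16.4 to 20.3 and Fgf2 at 0.0186 to 0.0745, and Fgfr2 overlaps Fgf9 on this length, though not per kilobase of the longest transcript.

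Fgf1 (chromosome 18, 38838672 to 38929470, minus strand, RefSeq on GRCm38) encodes acidic FGF, a ligand without a signal peptide that binds all of the FGF receptors. It had 59.9, 63.3 and 56.4 CPM in NS replicates 1, 2 and 3 and 61.5, 67.9 and 73.4 CPM in WS replicates 1, 2 and 3. Each WS library was above the NS library of the same number, by least in replicate 1 and by most in replicate 3. The groups as a whole overlapped, since WS replicate 1 lay below NS replicate 2. The log2 fold change was 0.17 (standard error, SE, 0.09, 95% interval -0.02 to 0.37, adjusted p = 0.9998 from edgeR). It was 0.24 without WS replicate 1 and 0.11 without WS replicate 3. Of the 8 tested genes Fgf1 had the lowest p before adjustment, 0.0780.

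Fgf18 (chromosome 11, 33116970 to 33147400, minus strand) encodes a secreted ligand known from bone, cartilage and lung development. It was counted 26, 30 and 29 times in NS and 37, 41 and 34 times in WS, or 1.64, 1.87 and 1.80 CPM in NS and 2.19, 2.54 and 2.15 CPM in WS. The lowest WS library lay above the highest NS library, and Fgf18 was the 1 of the 8 tested genes whose groups did not overlap, against 3.11% of all tested genes in this direction and 3.16% in the other. Its log2 fold change of 0.37 (SE 0.22, 95% interval -0.12 to 0.86) had an adjusted p of 0.9998 in edgeR. An exact permutation test over libraries, without regard to replicate numbers, gave a two-sided p of 0.10, the smallest that 3 against 3 allow. The difference was 0.28 without WS replicate 2 and up to 0.41 without another library. With 32.8 counts on average, counting error alone gives a coefficient of variation of 17.4%, above the 8.12% seen between libraries within groups.

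Fgf10 (chromosome 13, 118714699 to 118792573, plus strand) encodes a ligand of the IIIb form of Fgfr2, known from lung and limb buds and from tanycytes of the hypothalamus. Its levels were 5.17, 5.06 and 6.52 CPM in NS and 2.90, 5.63 and 5.87 CPM in WS. Only WS replicate 1, with 49 counts against 81 to 105 in the other 5 libraries, stood apart. The log2 fold change of -0.22 (SE 0.24, 95% interval -0.75 to 0.31, adjusted p = 0.9998 in edgeR) turned to 0.04 when that library was left out. Leaving out NS replicate 3 gave -0.09, and leaving out WS replicate 2 or 3 gave -0.36 or -0.39. Its spread within groups, 26.4%, was above the 10.9% that counting error gives. In the same library the choroid plexus markers had their lowest sum, 299.1 CPM against 472.8 to 956.3 CPM. The other libraries did not follow the same order. WS replicate 2 had the highest sum, 956.3 CPM, but less Fgf10 than WS replicate 3, whose sum was 618.1 CPM. The part of these markers in the Fgf10 value was not tested.

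Fgf9 (chromosome 14, 58070671 to 58112854, plus strand) encodes a secreted ligand first described as glia-activating factor and made largely by neurons. It had 18.4, 17.6 and 17.0 CPM in NS and 16.5, 16.6 and 19.0 CPM in WS. WS held both the lowest libraries and the highest one. The log2 fold change was -0.02 (SE 0.10, 95% interval -0.25 to 0.20), and its sign changed with the library left out.

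Fgf5 (chromosome 5, 98254184 to 98277033, plus strand), known for its control of the hair cycle, had 2.58, 2.93 and 2.98 CPM in NS and 2.49, 2.91 and 2.65 CPM in WS. Each WS library was below the NS library of the same number, and the groups overlapped. Its log2 fold change was -0.08 (SE 0.20, 95% interval -0.51 to 0.36, adjusted p = 0.9998 in edgeR). With 1 library left out it ran from -0.15 (WS replicate 2 left out; -0.14 for NS replicate 1) to -0.03 (WS replicate 1), with -0.04 for NS replicate 3.

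Fgf2 (chromosome 3, 37348477 to 37410106, plus strand) encodes basic FGF, a ligand that is best known for its action on endothelial cells and neural progenitors. It was counted 2, 3 and 3 times in NS and 3, 5 and 8 times in WS. The groups met at 3 counts, and 8 of the 16 WS counts came from replicate 3. The summed counts of 8 and 16, scaled to library size, gave a ratio of 1.96 with an exact 95% interval from 0.793 to 5.30 that covers counting error only, and an exact permutation test gave a two-sided p of 0.30. With no filter on low counts the fitted log2 fold change was 0.94 (SE 0.58, adjusted p = 0.9994 over 14824 genes in edgeR). This value rests on the same 8 and 16 counts. Of the Fgf2 exon sequence, 640 bases (9.44%) lie over exons of Nudt6 on the other strand. The counting is not stated to use strand, so reads there could belong to either gene. A further 255 bases (3.76%) lie over exons of Gm43439 on the same strand. Nudt6 had 50 to 73 counts per library, more than Fgf2 in each, and a log2 fold change of -0.30 (SE 0.18, adjusted p = 0.9998 in the same test).

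**Figure D2:**
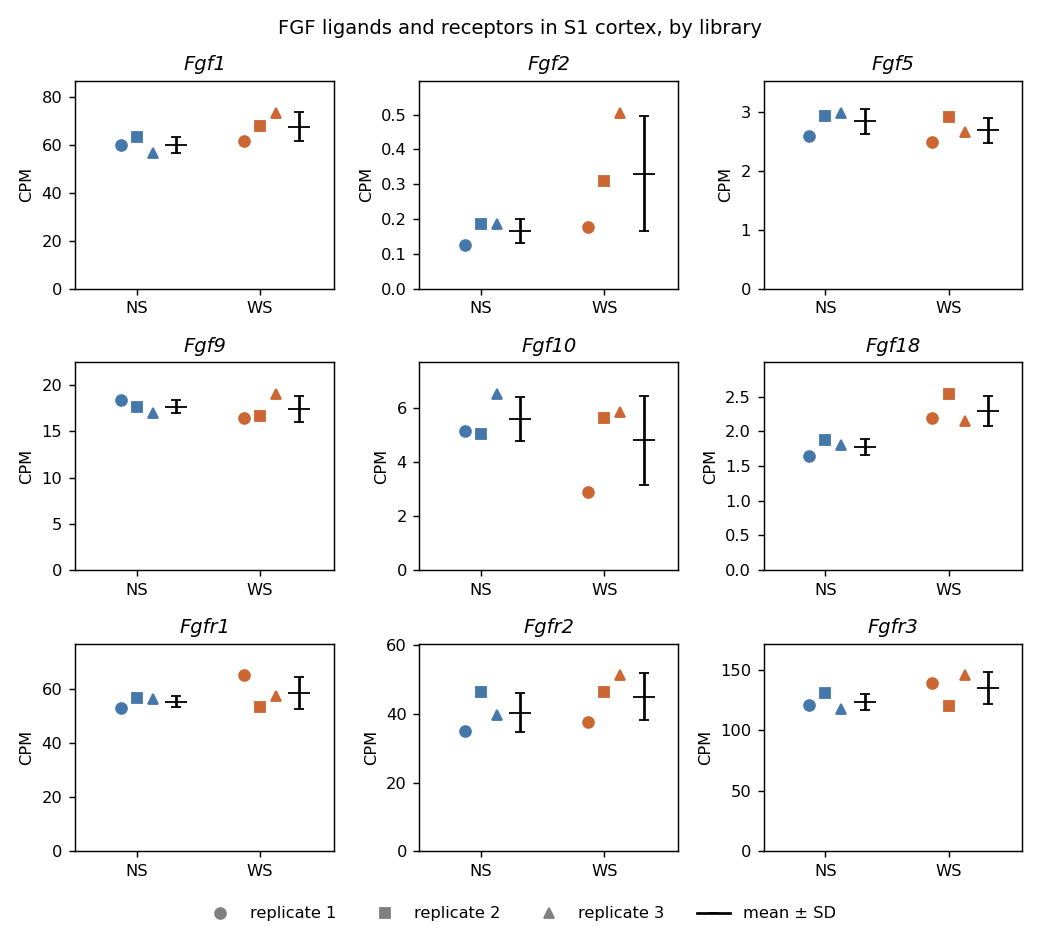
CPM of each of the 9 genes in each library, on axes that start at 0, with NS in blue and WS in orange, a symbol for each replicate number, and the mean and SD (n = 3) as a black bar beside the points. The WS points of Fgf18 (2.15 to 2.54) lie above all NS points (1.64 to 1.87), Fgf10 is low in WS replicate 1 (2.90), and the groups of the remaining genes overlap.

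Fgfr1 (chromosome 8, 25518759 to 25575718, plus strand) is the receptor best known in neurons and neural progenitors. It had 53.0, 56.5 and 56.3 CPM in NS and 64.9, 53.3 and 57.5 CPM in WS. WS replicate 1 was the highest library, and WS replicate 2 lay among the lowest. The log2 fold change was 0.08 (SE 0.09, 95% interval -0.12 to 0.29, adjusted p = 0.9998 in edgeR), and it was 0.0041 without WS replicate 1. Leaving out NS replicate 1 gave 0.06, and leaving out WS replicate 2 gave 0.14. WS replicate 1 also had the highest sum of the 8 excitatory neuron markers, 8176 CPM against 6871 to 7651 CPM in the others. The other libraries did not follow the same order. NS replicate 1, the lowest for Fgfr1, had the next highest sum, 7651 CPM. WS replicate 3, the next highest for Fgfr1, had 6973 CPM. WS replicate 1 was also highest for the summed inhibitory neuron (1402 CPM) and microglia (548.2 CPM) markers. The part of any of these markers in the Fgfr1 value was not tested.

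Fgfr2 (chromosome 7, 130162451 to 130266808, minus strand) is a receptor of the oligodendrocyte lineage and astrocytes. Its levels were 35.0, 46.2 and 39.8 CPM in NS and 37.6, 46.3 and 51.2 CPM in WS. WS was above NS in 3 of 3 same-numbered pairs, while the groups as a whole overlapped from 37.6 to 46.2 CPM. The log2 fold change was 0.16 (SE 0.13, 95% interval -0.13 to 0.44, adjusted p = 0.9998 in edgeR), and it was 0.27 with either WS replicate 1 or NS replicate 2 left out, 0.07 when NS replicate 1 was left out and 0.06 when WS replicate 3 was. Its coefficient of variation within groups was 14.6%, against 3.81% from counting error. The exon union used for its level per kilobase includes a transcript that runs far beyond the RefSeq span, and 314 bases (3.04%) of it lie over exons of Ctbp2 on the same strand.

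The spread of Fgfr2 went with that of oligodendrocyte lineage genes. From low to high, the libraries stood in the order NS replicate 1, WS replicate 1, NS replicate 3, NS replicate 2, WS replicate 2 and WS replicate 3, both for Fgfr2 and for the summed level of 10 oligodendrocyte lineage markers, which ran from 8299 CPM through 9850, 11220, 11900 and 12970 to 13150 CPM. Of the markers, 9 of 10 were lowest in NS replicate 1. All 10 markers had a log2 fold change above 0, with a median of 0.19 and 0 called. Of 99 pairings of an FGF gene with a marker list, 2 had the same order of the 6 libraries, the other being Fgf2 with the same list at 2 to 8 counts. These pairings were looked at after the values were known, and in bulk tissue fewer cells of a type and less RNA per cell cannot be told apart.

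**Figure D3:**
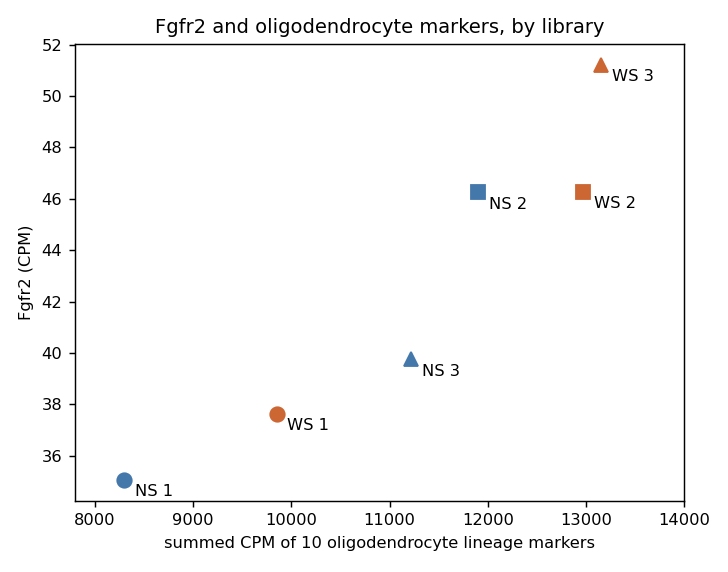
Fgfr2 level (CPM, vertical axis, not from 0) against the summed CPM of 10 oligodendrocyte lineage markers (horizontal axis) in each library, NS in blue and WS in orange. Both increase in the same order from NS replicate 1 (35.0 and 8299 CPM) to WS replicate 3 (51.2 and 13150 CPM).

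Fgfr3 (chromosome 5, 33721724 to 33737068, plus strand) is an astrocyte marker in the cortex. It had 121.2, 130.9 and 117.6 CPM in NS and 139.3, 119.8 and 145.3 CPM in WS. WS replicates 1 and 3 lay above every NS library and WS replicate 2 lay among them. The log2 fold change was 0.13 (SE 0.09, 95% interval -0.06 to 0.32, adjusted p = 0.9998 in edgeR), and it was 0.20 without WS replicate 2 and 0.07 without WS replicate 3. The sum of 9 other astrocyte markers was 4469 to 4969 CPM in NS and 4690 to 5790 CPM in WS, with WS replicate 3 highest. Gja1, the connexin of astrocyte gap junctions, was counted 347 times in NS replicate 3 against 2953 to 3688 in the other libraries, and without it the sums were 4447 to 4776 CPM in NS and 4507 to 5557 CPM in WS. All 9 markers had a log2 fold change above 0, with a median of 0.13 and 0 called, and their part in the Fgfr3 value was not tested. Of the Fgfr3 exon sequence, 13.9% also lies over exons of G630022F23Rik on the other strand, and reads there could belong to either gene. The exon overlap with antisense genes was 2.67% for Fgf10 and 1.66% for Fgfr1.

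The shares of the 3 receptors overlapped between the groups. Of their summed level per kilobase of exon union, Fgfr3 made up 64.5% ± 1.34 (SD, n = 3) in NS and 64.6% ± 1.48 (SD, n = 3) in WS. The share of Fgfr1 was 21.0% ± 0.931 in NS and 20.4% ± 1.72 in WS, and that of Fgfr2 was 14.6% ± 1.27 and 15.0% ± 2.42, with SD over 3 libraries. The differences were smaller than the spread between libraries in each receptor (exact permutation test, two-sided, p = 1.0 for Fgfr3 and p = 0.70 for Fgfr1 and Fgfr2).

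**Figure D4:**
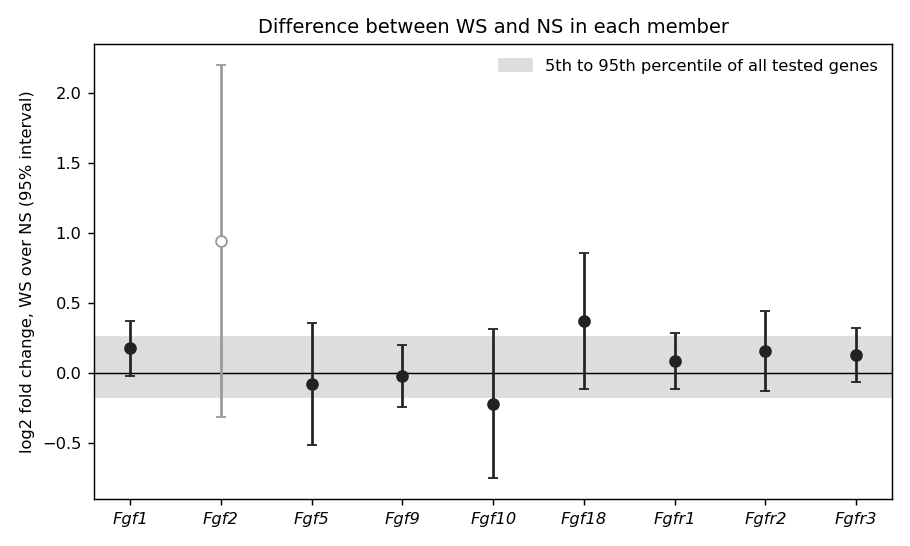
Log2 fold change of WS over NS with its 95% interval for each gene, and in grey the range from the 5th to the 95th percentile of all tested genes (-0.17 to 0.26). Each interval includes 0, and that of Fgf2 (open symbol, fitted with no filter on low counts) runs from -0.32 to 2.21.

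The intervals set how large a change could have gone unseen. For the 3 receptors, Fgf1 and Fgf9 they ended between 0.20 and 0.44 on the upper side and between -0.25 and -0.02 on the lower side of the log2 scale. Fgf18, Fgf5 and Fgf10, with 32.8 to 83.5 counts on average, had intervals that ended between 0.31 and 0.86 above 0 and between -0.75 and -0.12 below it. All of them excluded a log2 fold change of 1 in either direction, the threshold for a call, while the interval of Fgf2 did not. This holds for the whole piece of cortex, and changes within a layer or a cell type were not measured.

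Other genes of the pathway were read from lists of 60 genes, of which 55 were listed by the authors and 48 tested. Among the 48, 0 were called in either direction by edgeR, and 0 had an unadjusted p under 0.05. Of 12 other secreted ligands, 7 were listed and 2 tested, namely Fgf22, a presynaptic organizer, with a log2 fold change of 0.09, and Fgf23, the phosphate hormone, with -0.22. Fgf3, Fgf7, Fgf15, Fgf16 and Fgf17 had at most 15 counts in a library. The 4 intracellular FGF homologous factors, which bind sodium channels and are not secreted, lay between -0.14 (Fgf14) and 0.11 (Fgf11).

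Fgfrl1, the receptor-like protein without a kinase domain, had 261, 279 and 254 counts in NS and 318, 309 and 284 in WS. It was the 1 gene of the 48 whose CPM did not overlap between the groups, against 3.11% of all tested genes in this direction, with a log2 fold change of 0.17 (SE 0.10, adjusted p = 0.9998 in edgeR). Kl, the co-receptor of hormonal FGFs and a choroid plexus gene, ran from 70 counts in WS replicate 1 to 618 in WS replicate 2, with a log2 fold change of -0.15 (SE 0.52). Fgfr4 and Klb had at most 5 counts in a library.

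No gene of the remaining lists was called either. Among the 16 heparan sulphate and FGF-binding cofactors the median log2 fold change was 0.04, with 10 above 0 and 6 below, and the furthest from 0 were the glypicans Gpc2 (0.22, SE 0.27) and Gpc5 (0.14, SE 0.13). The 10 adaptors and relay proteins had a median of -0.0022, with 3 above 0 and 7 below, and the furthest were the docking proteins Gab1 (0.20, SE 0.12) and Frs3 (0.06, SE 0.10). Of the 14 feedback and target genes, 2 were above 0 and 12 below, with a median of -0.07 against 0.0074 over all tested genes, and their values lay between -0.15 and 0.03. The furthest were the transcription factor Etv1 (-0.15, SE 0.13) and the adhesion protein Flrt3 (-0.14, SE 0.10).

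**Figure D5:**
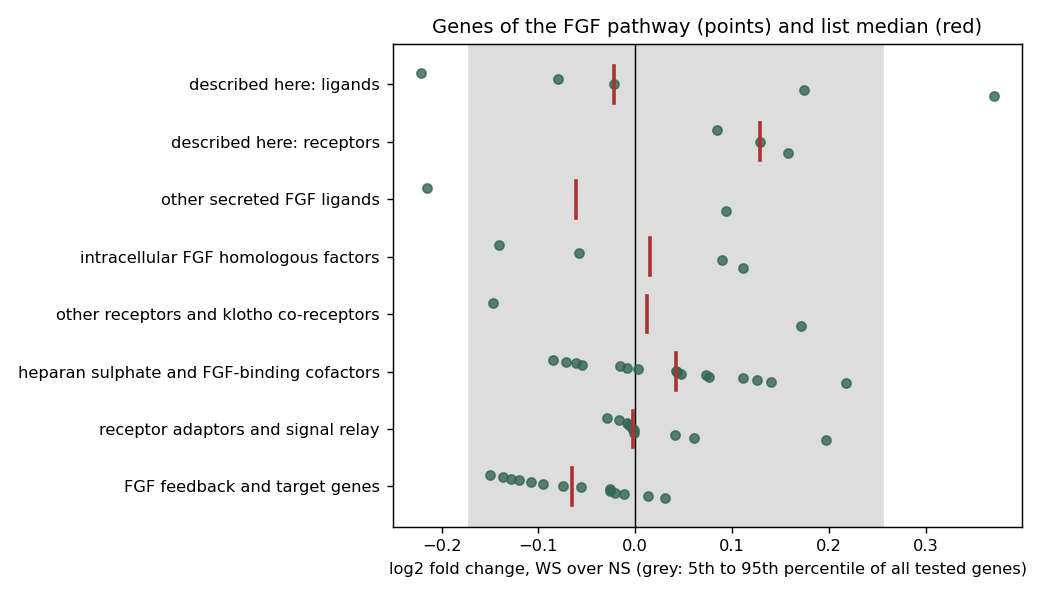
Log2 fold change of WS over NS (horizontal axis) for each tested gene of the FGF lists, with the median of each list as a red bar and the 5th to 95th percentile of all tested genes in grey. The receptors lie between 0.08 and 0.16, and the feedback and target genes between -0.15 and 0.03.

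Markers of other cell types are given as summed levels, which were not tested. The summed level of 10 endothelial markers was 212.9 to 228.3 CPM in NS and 231.7 to 286.4 CPM in WS, and all 10 had a log2 fold change above 0, from 0.0024 to 0.87 (Pecam1), with 0 called. Without Pecam1 the sums were 195.7 to 209.1 CPM in NS and 209.5 to 244.9 CPM in WS, which nearly touch. The sums of 9 pericyte and smooth muscle markers (266.7 to 275.3 CPM in NS, 275.5 to 326.1 CPM in WS), 9 microglia markers (498.4 to 522.4 and 529.5 to 548.2 CPM) and 7 inhibitory neuron markers (1255 to 1283 and 1288 to 1402 CPM) did not overlap between the groups either, the pericyte sums by a narrow margin. Of the 35 single markers in these 4 lists, 1 did not overlap between the groups, and this was Pecam1. The log2 fold change was above 0 in 8 of 9 pericyte, 8 of 9 microglia and 5 of 7 inhibitory neuron markers. How often sums of other genes separate in this way was not computed. The sums of 8 meningeal fibroblast markers (194.9 to 224.6 and 193.0 to 262.4 CPM) overlapped. So did those of the choroid plexus, the striatum and 5 red blood cell genes (421.6 to 766.4 and 500.9 to 634.0 CPM). In the meningeal list Igf2 alone had 101.1 to 157.1 CPM, and the collagens Col1a2 (log2 fold change 0.29) and Col3a1 (0.48) were higher in WS without overlap, neither of them called. Over all 11 marker lists, 5 of 90 tested markers were higher and 1 was lower without overlap, against 3.11% and 3.16% of all tested genes. The part of these markers in the values of the FGF genes was not tested.

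The genes whose pattern over the 6 libraries was most like that of an FGF gene were found by Pearson's r of log2 CPM. Fgf2 was left out for its low counts. Among 13687 others, 57 to 246 exceeded an r of 0.9 for each of the 8 tested FGF genes. The closest were Brsk2 and Taok2 for Fgfr1 (r = 0.996 and 0.989), Lpar1 and Rsrp1 for Fgfr2 (0.992 and 0.992), and Iqsec3 and Sptb for Fgfr3 (0.986 and 0.978). They were Plekhg1 and Adam12 for Fgf1 (0.988 and 0.987), Alpl and Klhl35 for Fgf18 (0.983 and 0.980), Prdm1 and Fbxo8 for Fgf10 (0.994 and 0.991), Rab30 and Tsc1 for Fgf9 (0.994 and 0.989), and Cbr4 and Mia for Fgf5 (0.994 and 0.988). These values describe 6 libraries that share their groups and depth.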

How the data were processed

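RNA-seq was made by the authors on a DNBseq platform. Reads of rRNA and of low quality were discarded, HISAT2 was used for alignment, and the genome build mm10 is named in the submitters' processing notes. The counting tool is not given in the sources used here. The authors deposited for each gene a mean and an SD over 6 libraries, both as estimated counts not scaled for depth, and a z-score for each library (unit score). The deposited log2 fold change, p-value and −log10 columns of the authors' own comparison, and a second table of these, were not used. The WS replicate 3 column bears an added letter. The deposited WS mean score includes it in 100% of genes.

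Counts were computed back as mean plus z-score times SD and rounded. In 13418 genes with under 0.1 count of uncertainty, 88.5% of values came back whole within that uncertainty, against 4.45% by chance. Designed for counts, the edgeR 4.0.16 quasi-likelihood test (TMM, filterByExpr) was used unchanged, with DESeq2 1.42.0 as an alternative, in R 4.3.3. Figures and exact tests used Python 3.11.15 and SciPy 1.17.1. The 95% intervals are the log2 fold change ± the t quantile times the standard error. The test was tested on simulated counts. Exon lengths are from GENCODE M21 (GRCm38) and gene spans from RefSeq GRCm38.p6.

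No library pair came near the chi-square of sampling noise (lowest 4.29 per degree of freedom over genes with at least 20 counts). Same-numbered libraries deviated together from their group means (r = 0.344, 0.232 and 0.108 over 13747 genes). Each was above the limit of 0.1, the last only just, so a block for the replicate number was fitted as an alternative. The standard errors, intervals and exact tests given above do not use the pairs. With the block the SE went from 0.13 to 0.10 for Fgfr2 and from 0.24 to 0.19 for Fgf10. It was larger with the block for the other tested FGF genes.

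The genes, the lists and the rules were chosen with earlier results of these data known. Genes named are the 9 FGF genes, the 2 furthest from 0 in each FGF list, the furthest of a marker list where described, and the 2 most alike in pattern. Lists were of excitatory and inhibitory neurons, astrocytes, oligodendrocyte lineage, microglia, endothelium, pericytes, meninges, choroid plexus, striatum and red blood cells. Gja1, Nudt6, Pecam1, Igf2, Col1a2, Col3a1, Fgfrl1, Dusp6, Flrt2 and the Spry genes were also named, after their values or positions were seen. Protein sequences were not used here, and some marker genes are not reported here by name.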

Additional observations from a re-analysis of the deposited data

How the results depend on the processing

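No FGF gene was called under any alternative tried, which were other size factors, library totals, no filter, a mean of at least 10 counts, a fit in DESeq2, a replicate block, leaving out each library in turn, and an adjusted or unadjusted p under 0.05 with any fold change. Over 96 alternative fits of the 8 tested genes the lowest adjusted p was 0.884 (edgeR or DESeq2), 92 kept their direction and 4 reversed it. Leaving out 1 library gave Fgf10 -0.39 to 0.043, above 0 without WS replicate 1, and Fgf9 -0.091 to 0.016. Fgf9 reversed to 0.0073 without NS replicate 1, to 0.0158 without WS replicate 1 and to 4.35e-05 without WS replicate 2, fits with 1 library fewer. Without WS replicate 1, Fgf1 and Fgfr2 had unadjusted edgeR p-values of 0.0120 and 0.0342 and an adjusted p of 1.0.

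Over all genes 4 were called higher and 0 lower. The replicate block gave 6 higher and 0 lower, changed no call among the FGF genes, and moved the genes at an unadjusted p under 0.05 from 119 to 190 higher and from 45 to 53 lower. With 1 library left out in turn, 0 to 6 genes were called higher, with 0 without NS replicate 2 and 0 without NS replicate 3, and 0 to 1 lower, with 1 without WS replicate 3. The cause was not tested. Counting error limits Fgf2, Fgf18 and Fgf5.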

Other observations

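Of the 14 feedback and target genes of FGF signalling, 6 had replicate 1 of both groups as their lowest 2 libraries. The 6 were Spry1, Spry2, Spry3, Spry4, Dusp6 and Flrt2, and the other 8 genes did not show this order. Over all 13747 tested genes NS replicate 1 and WS replicate 1 deviated together from their group means (r = 0.344). The share of all genes with these as their lowest 2 libraries was not computed. Dusp6, a MAPK phosphatase, and Spry4, a Sprouty protein, both feedback inhibitors, are given as examples. Dusp6 had 55.0, 89.6 and 98.4 CPM in NS replicates 1, 2 and 3 and 54.3, 79.5 and 92.0 CPM in WS replicates 1, 2 and 3. Spry4 had 12.6, 16.2 and 17.0 CPM in NS and 12.6, 16.5 and 17.7 CPM in WS. NS replicate 1 and WS replicate 1 were also the lowest 2 libraries for Fgfr2. The pattern and the examples were picked after the values were seen. The summed oligodendrocyte lineage markers were lowest in the same 2 libraries, as were 6 of the 10 single markers, and their part in these values was not tested.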
